A study of Bos taurus with 16 samples.

Results

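Rumen papillae of steers that ate much and gained much were compared with papillae of steers that also ate much and gained little. The comparison rests on 8 of the 16 libraries of the series, 4 labelled as high gain with high intake and 4 labelled as low gain with high intake. The members were chosen by those labels alone, with no measured value. All animals were crossbred steers of 344 ± 48 days with free access to 1 ration of rolled corn (57.35%), distillers grains (30%), alfalfa hay (8%), a supplement (4.25%) and urea (0.4%). No animal received a treatment. Steers were picked by where they fell in a plot of gain against feed eaten, so gain was observed and not assigned, and whatever else differed between the animals cannot be told apart from it. The remaining 8 libraries, 4 of high gain with low intake and 4 of low gain with low intake, were used only to ask whether the gain difference depended on intake. Each library came from papillae clipped from the rumen wall and frozen, was made from poly(A) RNA, and was read as 1 × 50 bases. Replicate numbers only name the libraries.

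The rumen wall carries papillae, leaf-shaped folds with a stratified epithelium over a core of connective tissue and blood vessels. The epithelium takes up acetate, propionate and butyrate made by the microbes, exchanges protons, sodium and bicarbonate with the rumen fluid, and turns much of the butyrate into ketone bodies. Blood vessels of the core carry the absorbed products away, and the cornified outer layers keep microbes out. At a given intake, steers that gain more make better use of their feed, and the comparison asks which genes differ with gain when intake is high.

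The unit of every level below is the authors' scaled read coverage, averaged over the bases of a region of the genome (build UMD3.1). A single 50-base read is worth 0.57 to 1.00 of these units over the bases it covers, depending on the library. A gene is represented by the exon-bearing region of that gene alone whose mean over the 16 libraries was highest, and 12011 genes had one. Of these, 8922 reached at least 0.5 in at least 4 of the 8 libraries and were tested, and 3089 were not. Differences are given as log2(level + 0.1), high gain minus low gain, with the standard error (SE) of the fit. This scale understates the change of genes near 0.

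The 8 libraries hold an estimated 11.9 to 20.8 M reads each, which limits genes of low level most. High gain replicate 4 stood apart. On the first principal component, which held 70.6% of the variance, it scored 178.7 while the other 7 lay between -39.1 and 4.37. Its correlation with the others was 0.498 to 0.679, against 0.872 to 0.942 among the other 7, and 622 tested genes were at 0 in it, against 18 to 69. The first-exon index, the median log2 ratio of first-exon coverage to that of the best region over 2677 genes, was -5.74 in this library, -3.30, -2.74 and -3.21 in the other high-gain libraries and -2.18, -2.74, -2.23 and -2.62 in the low-gain libraries. The group means were -3.75 ± 1.35 and -2.44 ± 0.283 (SD, n = 4 each; exact two-sided permutation p = 0.0571, adjusted p = 0.229 over 4 library measures, smallest p possible 0.0286). The mean was lower at high gain, although high gain replicate 2 lay within the low-gain range, and the part of 5′ coverage in the gene results was not tested. For differences and medians that moved by over 1.5 times without high gain replicate 4, that value is given beside them.

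No gene passed the threshold. With limma and Benjamini-Hochberg adjustment over 8922 genes, 0 genes (0%) were higher and 0 (0%) lower at an adjusted p under 0.05, and the smallest adjusted p was 0.873. At an unadjusted p under 0.05, 42 genes (0.471%) had a higher and 166 (1.86%) a lower estimate, 208 in all (2.33%), where 446 are expected if no gene differs. These unadjusted counts depended on the setting. They were 157 (1.76%) and 132 (1.48%) after quantile normalization, 390 (4.37%) and 243 (2.72%) with the first-exon index as a covariate, and 232 (2.6%) and 916 (10.3%) with weights estimated per library. In 36 genes (0.403%) every high-gain library lay above every low-gain library, and in 181 (2.03%) every one lay below, 217 in all (2.43%). In 1 of the former and 3 of the latter, 1 group was under the filter of 0.5 in all its libraries, so the gene entered the test only through the other group. Without high gain replicate 4 these were 78 (0.874%) and 289 (3.24%). The median difference over all genes tested was -0.11, with 3737 estimates (41.9%) above 0 and 5185 (58.1%) below. That balance depends on the scaling. After quantile normalization the median was 0.09 and the non-overlapping genes were 157 higher (1.76%) and 83 lower (0.93%), and after setting library medians equal the median was 0.06 with 142 higher and 94 lower. Lists are therefore read against the median of all genes. In simulated libraries of the same size, the same fit called 14% of genes changed by 1 on the log2 scale, and thus missed most of them. It called 52% of those changed by 2 and 78% of those changed by 3. The share was also 78% for changes of 4, and the fit called 8 genes that had not been changed. The simulated noise was independent between genes and libraries, so no simulated library stood apart over many genes as high gain replicate 4 did. These shares may therefore not hold for the real libraries.

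Among the genes with the smallest unadjusted p and a higher estimate at high gain, 3 act in sensing or restricting microbes. SAMD9, an interferon-induced antiviral factor, lay at 5.07, 2.10, 1.69 and 0.68 in the high-gain libraries and at 0.30, 0.40, 0.31 and 0.32 in the low-gain libraries (chr4:10300593-10307422, exon 3, the last). All 4 low-gain levels were under the filter of 0.5, so SAMD9 entered the test only through the high-gain libraries, and its difference of 2.21 ± 0.55 (SE) is given as a description. GBP4, a guanylate-binding GTPase that interferon induces, lay at 1.12, 3.22, 2.15 and 2.51 against 0.51, 1.03, 0.39 and 0.19. Its difference was 1.98 ± 0.50 (SE), and the estimate was above 0 in 11 of its 11 exon regions. TLR2, a receptor for bacterial lipoproteins, lay at 1.61, 3.14, 2.02 and 2.44 against 0.86, 1.13, 1.06 and 0.39, a difference of 1.37 ± 0.40 (SE). Neither gene's groups overlapped in these regions, but most of these levels correspond to a few overlapping reads. TLR2 was higher in 2 of its 3 exon regions. With all exon regions averaged, the groups overlapped in both GBP4 and TLR2, at differences of 1.36 and 1.06.

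ASIP, the agouti signalling protein that blocks melanocortin receptors, had the largest log2 difference of the named higher genes, although its groups overlapped. Its exon 2 (chr13:64234633-64234804) was covered at 17.73, 33.57, 22.86 and 14.23 in the high-gain libraries. In the low-gain libraries it was listed at 0 in replicates 1 and 2 and stood at 0.22 in replicate 4, while replicate 3 reached 17.51. All 4 high-gain steers thus carried ASIP coverage in this exon, and 1 of the 4 low-gain steers lay within their range. The difference was 5.44 ± 1.52 (SE; limma, unadjusted p = 0.00665, Benjamini-Hochberg adjusted p = 0.873). Without low-gain replicate 3 it was 7.16 and ASIP alone passed the threshold (limma, Benjamini-Hochberg adjusted p = 0.0108), so 1 library decides this call. With all exon regions of ASIP averaged, the difference over the 8 libraries was 2.45.

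Other higher genes are known from RNA synthesis and processing or from the epithelial surface. ZNRD1, a subunit of RNA polymerase I, had the smallest p of all higher genes, with 2.61, 3.01, 4.06 and 3.12 against 0.99, 1.43, 1.34 and 1.04. The groups were well apart and the difference was 1.34 ± 0.29 (SE), yet the estimate was above 0 in only 1 of its 4 exon regions, the last exon. PABPN1, the nuclear poly(A)-binding protein, lay at 58.53, 41.37, 42.28 and 40.27 against 26.33, 27.59, 25.89 and 28.82. The low-gain levels were close together, while high gain replicate 1 lay above the other 3 high-gain libraries. The means were 45.6 ± 8.65 and 27.2 ± 1.32 (SD, n = 4 each) and the difference was 0.73 ± 0.21 (SE), but 4 of its 7 regions were higher and the mean of all its regions differed by only 0.11. ELOVL4, which elongates very long fatty acids for the barrier lipids of the epidermis, lay at 1.16, 1.09, 3.4 and 1.55 against 0.49, 0.65, 0.56 and 0.73, and 4 of its 5 regions were higher. SERPINB2, an inhibitor of plasminogen activators made by keratinocytes, lay at 19.16, 22.09, 17.05 and 20.28 against 10.21, 11.21, 16.29 and 6.65, with 7 of 9 regions higher. KRT6A, a keratin of activated epithelium, had the highest levels of the named genes, 3380, 1960, 2809 and 2422 against 1549, 1434, 1999 and 1638. Its groups overlapped, only 2 of its 10 regions were higher, and near-identical keratin genes may share its reads.

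The other higher genes were SLC10A3, a member of the bile acid carrier family (1.21 ± 0.36, SE), ARSB, a lysosomal sulfatase (1.16 ± 0.37), SMS, the spermine synthase (0.88 ± 0.29), CDKN3, a phosphatase of cyclin-dependent kinases (1.35 ± 0.47), and LRRC16A, a regulator of actin capping (0.99 ± 0.36). Groups did not overlap in 10 of the 14 named higher genes, SAMD9 included, against 0.403% of all genes. The 14 were picked by p in the same libraries, so this count describes them and is no test. The region that stands for the gene reached the last exon in 13 of the 14, and over these genes 70 of 109 exon regions were higher. SLC10A3 turned to -0.74 when all its regions were averaged.

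**Figure D1:**
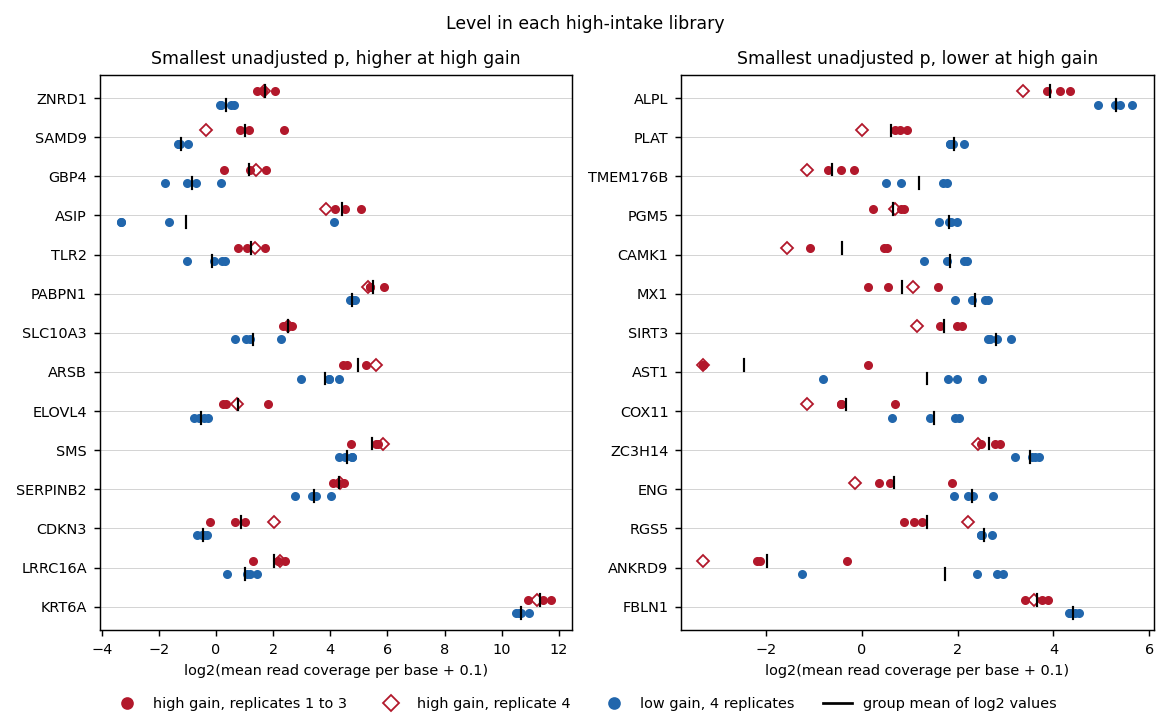
Level of the 14 genes per direction with the smallest unadjusted p, on a log2(mean read coverage per base + 0.1) axis, 1 point per high-intake library, with the open diamond for high gain replicate 4 and black ticks for group means. ASIP shows 1 low-gain library at 17.51 among the high-gain points while the other 3 lie at 0.22 or below, and in ALPL, PLAT, RGS5 and FBLN1 all high-gain points lie below all low-gain points.

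The lower direction included genes known from vessels, matrix and mitochondria. ALPL, the tissue-nonspecific alkaline phosphatase, had the smallest p of the comparison, with 20.16, 17.42, 14.52 and 10.27 at high gain and 50.09, 30.22, 38.70 and 41.90 at low gain (chr2:131807481-131807619, exon 3 of 12). No high-gain steer reached the lowest low-gain steer in this region, and 9 of 9 exon regions had lower estimates. The means were 15.6 ± 4.23 and 40.2 ± 8.22 (SD, n = 4 each), 2.58-fold apart, and the difference was -1.38 ± 0.28 (SE; limma, unadjusted p = 0.000903, Benjamini-Hochberg adjusted p = 0.873). With all exon regions of ALPL averaged, the difference was -1.34 and the groups overlapped. PLAT, the tissue plasminogen activator released by endothelium, lay at 1.82, 1.52, 1.64 and 0.91 against 3.5, 3.46, 3.66 and 4.27, a difference of -1.32 ± 0.30 (SE). FBLN1, the matrix glycoprotein fibulin-1, lay at 13.50, 14.80, 10.53 and 11.95 against 21.82, 20.04, 22.99 and 20.24, with all 16 of its regions lower and a difference of -0.75 ± 0.21 (SE). Lower estimates in every region were common, however. Among 4968 tested genes with at least 5 exon regions, 25.8% had every region lower and 0.825% had every region higher.

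RGS5, a regulator of G-protein signalling that marks pericytes, lay at 1.75, 2.30, 2.03 and 4.56 against 5.55, 5.61, 6.46 and 5.48. Its difference was -1.19 ± 0.33 (SE), widened to -1.47 without high gain replicate 4, and was the single lower one past the threshold with weights per library, at -1.52 (limma, Benjamini-Hochberg adjusted p = 0.0334). ENG, the endothelial receptor endoglin, lay at 1.18, 3.57, 1.40 and 0.81 against 4.89, 3.72, 6.62 and 4.52. High gain replicate 2 came close to the low-gain range, and the difference was -1.63 ± 0.45 (SE). With all exon regions averaged, the groups of ENG overlapped, at a difference of -1.04. PGM5, a protein of smooth muscle adhesion plaques, lay at 1.74, 1.66, 1.08 and 1.51 against 3.85, 3.55, 2.97 and 3.45, a difference of -1.17 ± 0.27 (SE).

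MX1, the antiviral GTPase induced by type I interferon, lay at 2.90, 1.37, 0.99 and 2.01 against 3.77, 6.15, 4.82 and 5.85. Its groups did not overlap, 13 of 13 regions were lower, and the difference was -1.53 ± 0.37 (SE). With all regions averaged, the groups overlapped, at a difference of -1.62. SIRT3, the main protein deacetylase of mitochondria, lay at 4.15, 3.0, 3.86 and 2.12 against 6.11, 8.56, 6.25 and 6.99, with 7 of 7 regions lower. CAMK1, a calmodulin-dependent kinase, lay at 0.37, 1.35, 1.27 and 0.24 against 4.46, 2.37, 3.33 and 4.28. TMEM176B, a membrane protein of immune cells, lay at 0.64, 0.51, 0.79 and 0.35 against 3.32, 3.16, 1.31 and 1.67. Every high-gain level of these 3 genes was below every low-gain level, and their differences were -1.10 ± 0.29, -2.27 ± 0.54 and -1.82 ± 0.42 (SE).

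A further 4 named lower genes need their exon beside them. COX11, an assembly factor of cytochrome c oxidase, differed by -1.84 ± 0.49 (SE) in a region of its first exon and by 0.10 in a region without it. ANKRD9, an ankyrin repeat protein, differed by -3.71 ± 1.03 in its first exon and by -1.33 elsewhere. ZC3H14, which binds poly(A) tails, differed by -0.87 ± 0.24 in exon 14 but had higher estimates in 7 of its 21 regions. AST1 was listed at 0 in 3 high-gain libraries and at 0.99 in replicate 2, against 3.85, 5.59, 3.39 and 0.47. Over the 14 lower genes, groups did not overlap in 11, against 2.03% of all genes. After quantile normalization they did not overlap in 7, against 0.93% of all genes. These genes too were picked by p in the same libraries, so the counts are no test. Without high gain replicate 4 their estimates ran from -3.54 to -0.72.

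Genes that mark the vessel wall and contractile cells lay furthest below the median of all genes among the lists with at least 5 tested members. Members of every list were chosen with earlier results of these data known. Shares of a list set beside those of all genes therefore describe the list and are no test. Of the endothelial list, 16 of 18 genes were tested and 16 had lower estimates, with a median of -0.83 against -0.11 for all genes. No member passed the adjusted threshold. An unadjusted p under 0.05 with a lower estimate was found in 3 members, against 1.86% of all genes. In 3 (ENG, CLEC14A and CDH5) the groups did not overlap, 18.8% of the list against 2.03% of all genes. The median was -0.59 without high gain replicate 4, -0.38 after quantile normalization (all genes 0.09), where the groups of every member overlapped, and -0.28 with the first-exon index as a covariate (all genes -0.08). CLEC14A, a lectin of the endothelial surface, lay at 0.72, 0.78, 0.67 and 1.03 against 1.72, 1.60, 1.62 and 1.61. CDH5, the cadherin of endothelial junctions, lay at 0.81, 0.76, 0.59 and 0.57 against 1.21, 1.24, 1.37 and 1.07. Both were lower in each high-gain library, with differences of -0.96 ± 0.29 and -0.77 ± 0.30 (SE), while PECAM1, a general endothelial marker, overlapped between groups at -0.43 ± 0.28. The tight junction gene CLDN5 differed by -1.77 ± 0.79, or by -0.99 without high gain replicate 4, in which it was listed at 0.

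Summed over the 18 endothelial genes, the level was 39.9, 43.5, 33.9 and 17.5 at high gain and 62.2, 67.3, 60.6 and 58.2 at low gain. The 4 high-gain sums all lay below the 4 low-gain sums, with or without replicate 4. In whole papillae, fewer endothelial cells and less RNA per endothelial cell cannot be told apart. The mean first-exon index was lower at high gain by 1.31, a difference that did not pass (exact permutation test, adjusted p = 0.229), and its part in this result was not tested.

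Pericytes, the contractile cells around capillaries, had lower estimates too, in fewer genes. All 6 genes tested had lower estimates, with a median of -1.03, 4 had an unadjusted p under 0.05 with a lower estimate, as had 1.86% of all genes, and in 3 the groups did not overlap, 50% of the list against 2.03% of all genes. After quantile normalization 1 of the 6 was lower without overlap, against 0.93% of all genes. HIGD1B, a gene enriched in pericytes, lay at 0, 0.79, 0.50 and 0 against 1.76, 1.19, 1.36 and 1.28. PDGFRB, the receptor that recruits pericytes to vessels, lay at 2.22, 1.24, 0.77 and 0.39 against 2.52, 2.89, 2.41 and 1.66, and MCAM, an adhesion molecule of vessel walls, differed by -0.89 ± 0.39 (SE). The groups overlapped in both of the latter genes. The summed level of the 6 genes was 10.1, 9.92, 6.05 and 6.65 against 16.6, 15.8, 15.1 and 12.9, again without overlap. The median was -0.80 without high gain replicate 4 and -0.59 after quantile normalization.

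Smooth muscle genes had the lowest median, -1.13, with 14 of 14 tested members lower, but the steers differed among themselves. TPM2, a tropomyosin, lay at 8.44, 6.83, 0.57 and 0.56 at high gain and at 11.49, 8.10, 11.70 and 10.85 at low gain. MYL9, the regulatory myosin light chain, lay at 5.58, 4.69, 1.99 and 0.32 against 8.94, 8.36, 6.38 and 6.40. TAGLN, an actin-binding protein of contractile cells, lay at 18.07, 15.56, 4.03 and 0.90 against 18.40, 15.77, 16.28 and 17.10. In all 3 genes high gain replicates 3 and 4 were far below replicates 1 and 2, which were closer to the low-gain steers. CNN1, a calponin, was listed at 0 in replicates 3 and 4. The list's summed level showed the same split, at 82.1, 64.7, 22.7 and 20.1 against 91.1, 77.7, 86.1 and 76.4. The median was -0.83 without replicate 4, and TAGLN turned to 0.06 with the first-exon index as a covariate.

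Matrix genes lay lower by a smaller median. Of 18 collagen and matrix genes, 17 had lower estimates, with a median of -0.47 (-0.56 without high gain replicate 4), and in 2 of them (FBLN1 and COL6A1) the groups did not overlap, 11.1% of the list against 2.03% of all genes. COL6A1, a chain of the beaded filament collagen, lay at 9.59, 10.38, 4.25 and 1.35 against 13.58, 12.58, 13.76 and 10.59. Its groups overlapped with all exon regions averaged. ELN, which encodes elastin, differed by -1.28 ± 0.59 (SE), or by -0.74 without high gain replicate 4, and COL4A1, a chain of basement membranes, by -0.88 ± 0.48. The major fibrillar collagens were less separated. COL3A1 lay at 55.89, 41.88, 52.29 and 78.45 against 62.68, 68.93, 111.50 and 47.44, and the difference was -0.31 ± 0.32, or -0.48 without high gain replicate 4. COL1A1 was listed at 0 in high gain replicate 4, and its difference of -2.44 ± 1.77 became -0.36 without that library. Summed levels of the list overlapped, at 271 to 384 against 300 to 541.

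**Figure D2:**
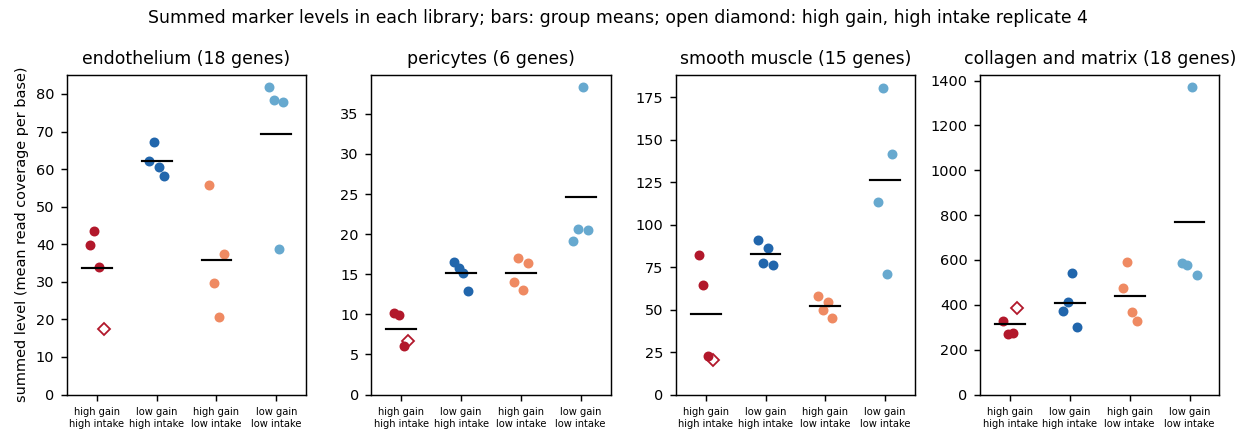
Summed level (mean read coverage per base) of the marker genes of endothelium, pericytes, smooth muscle, and collagen and matrix in each of the 16 libraries, with black bars for group means. At high intake the high-gain points lie at 17.5 to 43.5 for endothelium against 58.2 to 67.3 at low gain and at 6.05 to 10.1 for pericytes against 12.9 to 16.6, while the smooth muscle and matrix sums overlap.

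The same lists leaned the same way among low-intake steers, which share no library with the comparison above. There the gain difference was below 0 in 15 of 16 endothelial genes (median -0.54), 6 of 6 pericyte genes (-0.62), 14 of 14 smooth muscle genes (-0.74) and 17 of 18 matrix genes (-0.62), against a median of 0.01 over all genes. Summed endothelial levels were 20.55 to 55.7 at high gain with low intake and 38.7 to 81.9 at low gain with low intake. The first-exon index was -5.57 to -3.56 in the former and -2.36 to -2.03 in 3 of the latter, with -5.80 in replicate 3. The groups thus overlapped through that library, no test of the index was run at low intake, and its part was not tested.

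Few markers of blood and nerve cells could be tested. At most 1 or 2 members of the B and plasma cell, neutrophil, mast cell, erythrocyte, adipocyte and nerve lists were abundant enough to be tested. The macrophage and dendritic cell list had a median of -0.31 over 10 genes, with summed levels of 23.4 to 57.4 against 34.35 to 64.5. The T and natural killer cell list had a median of 0.03 over 9 genes (-0.07 without high gain replicate 4) and sums of 13.4 to 57.9 against 17.95 to 48.3. PTPRC, the pan-leukocyte marker CD45, lay at 2.40, 0.80, 1.06 and 4.68 against 1.19, 1.75, 1.42 and 0.45. The groups overlapped in both sums and in PTPRC. UCHL1, a ubiquitin hydrolase of neurons and 1 of the 2 nerve markers tested, lay at 0.61, 0.53, 0.50 and 0.37 against 1.63, 0.78, 1.62 and 0.71. Its groups did not overlap, and the difference was -1.02 ± 0.40 (SE). They overlapped after quantile normalization.

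Immune defence genes did not share a direction. Of 23 genes of innate sensing and inflammation tested, 16 had higher estimates, with a median of 0.17, and in 2 (GBP4 and TLR2) the groups did not overlap, 8.70% of the list against 0.403% of all genes. In both, the groups overlapped with all exon regions averaged. TRIM40, an inhibitor of inflammatory signalling in gut epithelium, lay at 2.28, 3.37, 2.27 and 2.62 against 0.59, 0.53, 2.89 and 1.11, with low-gain replicate 3 inside the high-gain range. Without high gain replicate 4 the median was -0.04, against -0.08 for all genes. The 20 interferon-induced genes tested split into 8 higher and 12 lower, with SAMD9 on the higher side and MX1 and IFI27 on the lower without overlap. That is 5% of the list higher and 10% lower without overlap, against 0.403% and 2.03% of all genes, with SAMD9 under the filter in the low-gain libraries. IFI27, an interferon-induced protein of mitochondria, lay at 1.84, 2.48, 1.01 and 0 against 7.30, 5.82, 13.85 and 10.78, and OAS1, which activates RNA decay in infected cells, differed by -1.11 ± 0.50 (SE). The list's median was -0.36 as deposited, -0.17 without high gain replicate 4 and 0.16 after quantile normalization. Of the antigen presentation genes, BOLA, a class I histocompatibility gene, lay at 33.84, 11.44, 0.25 and 1.29 against 66.59, 47.07, 37.83 and 38.28. Its groups overlapped with all exon regions averaged. BOLA belongs to a polymorphic multigene family, so the reads that reach it can differ between animals with their alleles.

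The functions for which the rumen epithelium is known showed small or uneven differences, apart from some transport genes. SLC9A3, the sodium-proton exchanger of the luminal membrane, lay at 12.76, 29.08, 38.18 and 21.43 against 43.86, 57.05, 44.47 and 62.38. Every high-gain steer lay below every low-gain steer, 8 of 8 exon regions were lower, and the difference was -1.13 ± 0.35 (SE; limma, unadjusted p = 0.0110, Benjamini-Hochberg adjusted p = 0.873) and -1.08 without high gain replicate 4. Over the 9 sodium, proton and bicarbonate transport genes tested, 4 were higher and 5 lower, with a median of -0.26 (-0.02 without high gain replicate 4), so SLC9A3 did not stand for its list. CA2, a carbonic anhydrase, reached at most 0.40 and was not tested.

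SLC26A3, a chloride-bicarbonate exchanger, lay at 6.15, 14.06, 9.66 and 16.16 against 27.62, 15.30, 31.17 and 14.45. The groups overlapped through high gain replicate 4 and low gain replicates 2 and 4, and the difference was -0.95 ± 0.40 (SE). SLC16A1, the carrier that exports ketone bodies and short-chain acids to blood, lay at 53.85, 54.81, 50.17 and 174.2 against 72.80, 77.03, 75.42 and 30.06. The fourth library of each group left the range of the other 3 in opposite directions, and the difference of 0.25 ± 0.48 became -0.17 without high gain replicate 4. SLC16A3, another monocarboxylate carrier, was at 0.92 or below and was not tested.

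Of the urea, water and glucose uptake list, the water channels AQP1, AQP3 and AQP5 had estimates below 0, although AQP3 turned to 0.46 with the first-exon index as a covariate. AQP1, the water channel of endothelium and red cells, lay at 4.45, 5.08, 5.20 and 1.88 against 5.99, 8.76, 7.10 and 5.98, without overlap. AQP5, a water channel of glands and surface epithelia, lay at 60.82, 164.9, 44.81 and 24.58 against 151.5, 194.8, 146.1 and 109.7, with high gain replicate 2 among the low-gain values. AQP3, which passes water and glycerol, differed by -2.86 ± 1.51 (SE) in its first exon, by -1.11 without high gain replicate 4 and by -0.71 in a region without the first exon. SLC14A1, the urea carrier that returns urea nitrogen to the rumen, lay at 36.09, 55.83, 75.00 and 74.04 against 47.41, 56.96, 47.34 and 42.55, a difference of 0.26 ± 0.28 (0.14 without high gain replicate 4). Across the 7 urea, water and glucose uptake genes tested, 5 were lower and the median was -0.26, or -0.15 without that library.

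Ketone body synthesis genes had small or uneven differences. BDH1, which reduces acetoacetate to hydroxybutyrate, lay at 37.48, 100.2, 60.69 and 19.44 against 113.9, 166.7, 116.9 and 55.05, a difference of -1.19 ± 0.53 and of -0.78 without high gain replicate 4. ACAT1, the thiolase at the start of the path, differed by -0.31 ± 0.36, or by -0.52 without that library. Of the 10 genes of the list tested, 8 were lower, with a median of -0.26, no group was free of overlap, and none had an unadjusted p under 0.05.

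**Figure D3:**
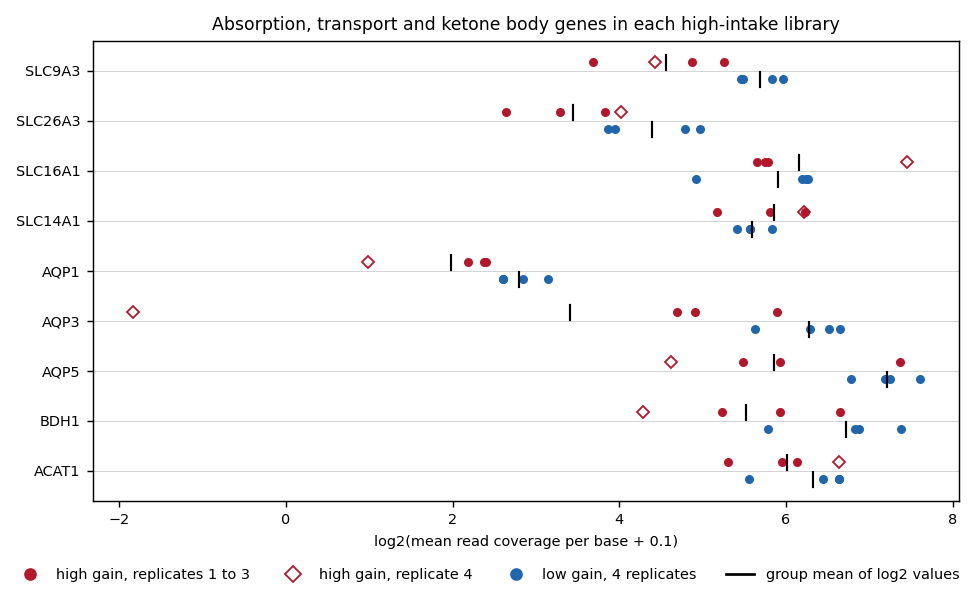
Level of 9 absorption, transport and ketone body genes on a log2(mean read coverage per base + 0.1) axis, 1 point per high-intake library, with the open diamond for high gain replicate 4 and black ticks for group means. SLC9A3 and AQP1 separate the groups, ACAT1 and SLC14A1 do not, and high gain replicate 4 lies far from the other high-gain points in AQP3 (0.18) and SLC16A1 (174.2).

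The epithelium itself was present in all libraries and did not separate the groups. KRT5, the keratin of the basal layer, lay at 219.7, 202.1, 120.1 and 119.7 against 226.7, 257.3, 241.6 and 115.8. KRT14, its partner keratin, lay at 841.3, 663.7, 436.0 and 80.2 against 288.1, 212.9, 384.2 and 508.7, a difference of 0.18 ± 0.71 (SE), or of 0.92 without high gain replicate 4. Neither order of the groups held in every library. Of 14 keratins tested, 11 were lower, with a median of -0.47 (-0.20 without high gain replicate 4). KRT36, a hair-type keratin, lay at 3.1, 4.05, 12.18 and 0.48 against 56.23, 24.00, 42.52 and 6.30, a difference of -2.98 ± 0.98, with high gain replicate 3 above low gain replicate 4.

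The cornified surface layers had a median of -0.08 over 23 genes, close to that of all genes (0.11 without high gain replicate 4), and summed levels of 3745 to 9548 against 4805 to 8035. CSTA, a cysteine protease inhibitor of the cornified envelope, lay at 8.92, 1.10, 0.97 and 0.78 against 0.60, 1.02, 0.16 and 0.45, so that its mean rested on high gain replicate 1. KLK10, a secreted protease of the surface, differed by -2.25 ± 1.32 and by -0.77 without high gain replicate 4. The inhibitors SPINT2 and CSTB differed by -2.27 ± 0.91 and -2.87 ± 1.22 in regions that hold a first exon, by -1.23 and -1.51 there without high gain replicate 4, and by -0.43 and -0.46 in regions that hold none.

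Growth factor genes were lower in 13 of 15 members tested, with a median of -0.56, of -0.25 without high gain replicate 4 and of -0.13 with the first-exon index as a covariate. IGF2, the fetal-type insulin-like growth factor, lay at 3.47, 5.10, 2.77 and 1.52 against 7.54, 5.05, 7.14 and 6.56, and the groups met only through high gain replicate 2 and low gain replicate 2. IGFBP4, which binds insulin-like growth factors, differed by -0.75 ± 0.31 (SE). HBEGF, a ligand of the epidermal growth factor receptor, went the other way, at 18.90, 14.96, 11.11 and 16.82 against 10.43, 8.12, 13.00 and 9.49, with an overlap between high gain replicate 3 and low gain replicate 3. Of 18 immediate early genes, 15 were lower with a median of -0.40 (-0.25 without high gain replicate 4 and -0.12 in regions without a first exon), and JUNB, a subunit of the AP-1 factor, differed by -2.32 ± 1.23 and by -0.92 without high gain replicate 4. Of 8 homeobox genes, 6 were lower, with IRX3 at 6.89, 7.83, 7.24 and 8.29 against 10.54, 9.40, 8.97 and 12.40 and PITX1 at -1.18 ± 0.52, or -0.65 without high gain replicate 4.

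Housekeeping lists with many members allow the shift to be read over more genes. Of 74 cytosolic ribosomal protein genes, 56 were lower with a median of -0.35 (-0.17 without high gain replicate 4). The median was -0.20 in regions without a first exon (all genes -0.09) and -0.06 with the first-exon index as a covariate (all genes -0.08). In 6, among them RPS2 and RPL37, the groups did not overlap, 8.11% of the list against 2.03% of all genes. RPS2 differed by -1.03 ± 0.45 (SE) in a region that holds its first exon, or by -0.55 without high gain replicate 4. In a region without the first exon it differed by -0.20 and its groups overlapped. After quantile normalization 2 of the 74 were lower and 2 higher without overlap, where the shares of all genes were 0.93% and 1.76%. RPL37 lay at 367.5, 343.0, 401.1 and 149.0 against 538.7, 556.1, 458.6 and 447.0, where high gain replicate 4 held the lowest level. Of 73 nuclear genes of oxidative phosphorylation, 46 were lower with a median of -0.27, which was -0.01 without high gain replicate 4 and 0.07 in regions without a first exon. NDUFAB1, an acyl carrier protein of complex I, differed by -4.70 ± 1.48 in its first exon and by 0.27 elsewhere, and NDUFS6 by -3.33 ± 1.27 and -1.33, with -1.95 in the first exon without high gain replicate 4. Fatty acid oxidation had 16 of 23 genes lower with a median of -0.15 (-0.30 without high gain replicate 4), among them PPARA, the receptor that drives this path, at 0.69, 1.58, 1.55 and 3.27 against 4.46, 4.11, 2.36 and 3.99, and ECHS1 at -0.39 ± 0.22.

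The cell cycle list lay highest, with 18 of 27 genes higher and a median of 0.21, but no member had an unadjusted p under 0.05. RRM2, a subunit of ribonucleotide reductase, lay at 10.22, 4.83, 3.74 and 15.08 against 3.29, 3.73, 9.14 and 2.58. The groups overlapped through low gain replicate 3, and the list's median was 0.08 without high gain replicate 4.

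**Figure D4:**
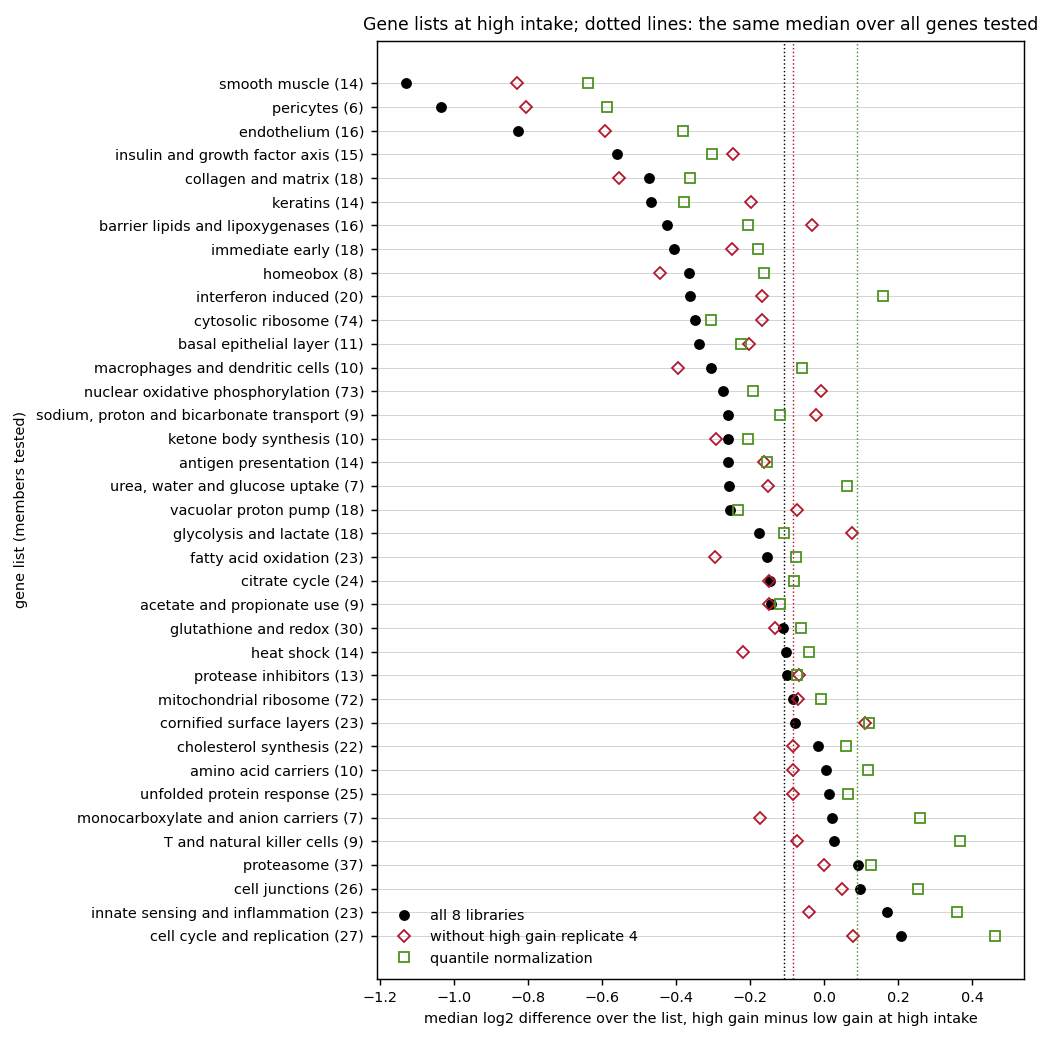
Median log2 difference (high gain minus low gain at high intake) of each gene list with at least 5 tested members, for all 8 libraries (black), without high gain replicate 4 (red) and after quantile normalization (green), with dotted lines for the same median over all genes tested. Smooth muscle, pericyte and endothelial lists lie furthest to the left under all 3 treatments, and the cell cycle list lies furthest to the right in the black and green series.

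Whether gain made a different difference at high than at low intake was tested over all 16 libraries. No gene passed (limma, Benjamini-Hochberg; 0 of 8922, 0%, smallest adjusted p 1.00), and 39 genes (0.437%) had an unadjusted p under 0.05, 11 (0.123%) with a positive and 28 (0.314%) with a negative interaction. That unadjusted count also depended on the setting, with 107 (1.2%) after quantile normalization, 319 (3.58%) with the first-exon index as a covariate, 876 (9.82%) without the 5 libraries lowest in first exons and 194 without low-gain, low-intake replicate 3. MX1 had the smallest p, 0.000344, with an interaction of -2.41 ± 0.52 (SE). At low intake it lay at 1.91, 1.66, 1.31 and 3.70 at high gain and at 1.19, 0.93, 1.06 and 0.99 at low gain, so the groups were apart at both intakes and in opposite order. FAM48A (also named SUPT20H), a component of a histone acetylation complex, had an interaction of -1.31 ± 0.36. It lay at 3.65, 3.19, 1.89 and 3.52 against 5.88, 3.88, 4.88 and 4.40 at high intake, and at 5.01, 4.82, 5.14 and 4.13 against 3.16, 2.91, 2.16 and 3.89 at low intake. Its groups too were apart at both intakes in opposite order, which held in 2 of all 8922 genes (0.0224%), while 5 (0.056%) were apart in the same order. For FAM48A, however, the mean of all its exon regions differed by only 0.03 at high intake. For MX1 the groups overlapped in that mean at high intake.

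TRIM5, a restriction factor for retroviruses, had an interaction of -2.89 ± 0.82 (SE), resting on 10.23, 12.53, 6.41 and 6.28 in the high-gain, low-intake libraries against at most 5.08 in any other. TPRG1 had one of -2.16 ± 0.64. In the positive direction, PEPD, the dipeptidase that frees proline from collagen fragments, had an interaction of 1.10 ± 0.36, since its groups overlapped at high intake and lay at 4.96, 4.32, 3.16 and 3.86 against 8.85, 7.03, 9.42 and 8.05 at low intake. FANCD2, of the interstrand crosslink repair pathway, had 1.5 ± 0.55, SLC10A3 had 1.59 ± 0.60 and PTPRE, a receptor-type phosphatase, had 1.24 ± 0.46. For all of these the Benjamini-Hochberg adjusted p of limma was 1.00. Over the genes named at high intake, 12 of the 14 higher and 10 of the 14 lower kept their sign among low-intake steers. The share of all genes that did so was not computed, so these counts are no test. At low intake, 4399 of the 8922 had estimates below 0. The lower genes include COX11 and ANKRD9, read in first-exon regions. In 13 of the 14 higher genes the region reached the last exon, and the part of 5′ coverage was not tested in either direction.

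**Figure D5:**
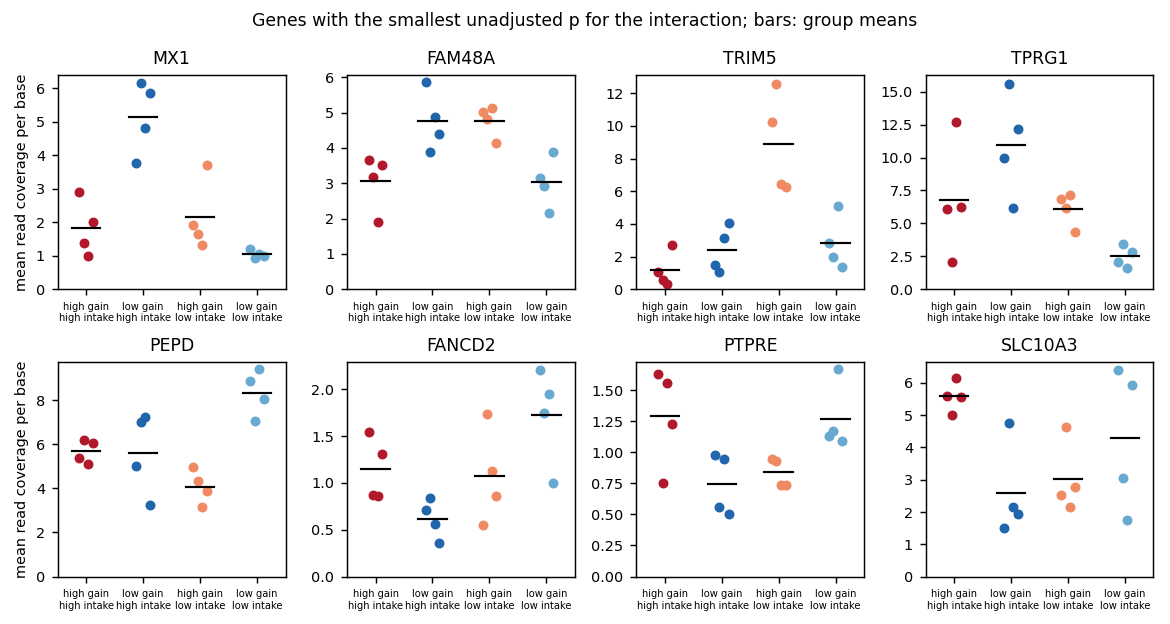
Level (mean read coverage per base, axes from 0) of the 8 genes with the smallest unadjusted p for the gain by intake interaction, 1 point per library in each of the 4 groups, with black bars for group means. In MX1 and FAM48A the high-gain points lie below the low-gain points at high intake and above them at low intake.

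As with genes, no region outside annotated genes passed, but a larger share had lower estimates at an unadjusted p under 0.05. Of 32155 intergenic regions tested, 0 (0%) passed the threshold (limma, Benjamini-Hochberg, smallest adjusted p 0.370). At an unadjusted p under 0.05, 255 (0.793%) had a higher and 1240 (3.86%) a lower estimate, against 0.471% and 1.86% of genes. The groups did not overlap in 147 regions (0.457%) with higher and 926 (2.88%) with lower levels at high gain.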

How the data were processed

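The deposited table holds 16 library columns over 2351373 regions of UMD3.1. Per the submitters' processing notes, reads were aligned with TopHat2 2.08b, and no source used here names the tool behind the coverage. The authors' values are signal, mean read coverage per base scaled by 1 factor per library, so that coverage times length sums to 591 to 596 Mb in each. Depth was estimated as that sum over 50 bases and the worth of 1 read.

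The authors' deposited log2 ratio and fold columns (highest over lowest sample of a region) and their p-value column were not used, nor were 515 regions that join exons of more than 1 gene. Levels were compared as log2(level + 0.1) with limma 3.58.1 (R 4.3.3; trend and robust options, Benjamini-Hochberg, threshold 0.05), the gain difference on the 8 high-intake libraries and the interaction on all 16. The fit was tested on simulated data. Genes, lists and tests were chosen with earlier results of these data known. Named are the 14 genes per direction with the smallest unadjusted p and a mean of at least 1, up to 4 members per list by p, a fixed set of rumen and marker genes, and 4 genes per direction for the interaction. Locus codes were passed over, and some genes of the fixed set are not reported here. The labels give 1 library per sample and no batch. Alternatives covered the pseudocount, filter, region choice, scaling, weights, covariate and leaving out libraries.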

Additional observations from a re-analysis of the deposited data

Results flagged for a closer look

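Values were checked in 200 groups of 4 libraries, gene by gene and for 4 library measures. In 11, where chance gives about 10, a single library lay apart from the other 3 by more than the 95% limit for a single outlying value. All 11 were gene levels. At high intake these were ASIP in low-gain replicate 3 (17.51, others 0 to 0.22), PABPN1 in high-gain replicate 1 (58.53, others 40.27 to 42.28), AST1 in high-gain replicate 2 (0.99, others 0), RGS5 in low-gain replicate 3 (6.46, others 5.48 to 5.61), CLEC14A in low-gain replicate 1 (1.72, others 1.60 to 1.62), ELN in low-gain replicate 4 (3.44, others 6.83 to 7.49) and CSTA in high-gain replicate 1 (8.92, others 0.78 to 1.10). High-gain replicate 4 held 2 of them, COL1A1 at 0 (others 29.30 to 33.43) and SLC16A1 at 174.2 (others 50.17 to 54.81). SLC16A1 was also apart in low-gain replicate 4 (30.06, others 72.80 to 77.03). At low intake, PTPRE was apart in low-gain replicate 3 (1.67, others 1.09 to 1.17).

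In 2 of the 8922 genes tested, the groups were apart at both intakes and in opposite order, with an interaction of -2.41 for MX1 and -1.31 for FAM48A. Neither passed the threshold after adjustment (limma, Benjamini-Hochberg adjusted p = 1.00).

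Coverage outside annotated genes was also measured. Of 1254390 intergenic regions, 3193 lay above 3 read-equivalents in all 8 high-intake libraries.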

How the results depend on the processing

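No paired analysis was run, because the labels give no pairing of steers between the groups. No gene passed the threshold in either direction under any alternative except per-library weights (1 higher, SAMD9, whose low-gain levels were all under the filter, and 1 lower, RGS5) and leaving out low-gain replicate 3 (1 higher, ASIP); over single libraries left out, the calls ranged from 0 to 1 higher and 0 lower. The interaction count stayed at 0 throughout. Genes without overlap numbered 36 higher and 181 lower as deposited. The higher count was 23 with a filter at 2, 13 with all regions averaged, 157 after quantile normalization, 142 with equal medians, 47 to 360 over single libraries left out, with 360 without high-gain replicate 2, and 71 without high-gain replicate 4 in regions without a first exon, an alternative chosen after seeing the data. The lower count was 83 after quantile normalization, 94 with equal medians and 249 to 535 over single libraries left out, with 535 without low-gain replicate 4. Leaving out a library makes separation easier by construction. At an unadjusted p under 0.05, the counts ranged from 13 to 390 higher and 74 to 916 lower, and from 28 to 876 for the interaction, over all settings run. Over single libraries left out they were 15 to 151 higher and 74 to 327 lower, each with the lowest without low-gain replicate 1 and the highest without high-gain replicate 2.

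Of 1767 values of 86 genes over 21 alternatives, 1742 kept their sign and 25 in 16 genes did not. With the first-exon index as a covariate these were TAGLN 0.065, COL1A1 1.37, SLC16A1 -0.47, AQP3 0.46, KLK10 0.30, JUNB 0.35 and PTPRC -0.21. With per-library weights they were SLC16A1 -0.31 and SLC14A1 -0.13. With all regions averaged they were SLC10A3 -0.74, ACAT1 0.037, KRT14 -0.37, PEPD -0.48, FAM48A 0.034 and TRIM5 0.15. In regions without a first exon they were COX11 0.10 and NDUFAB1 0.27. Over single libraries left out, SLC16A1 ranged from -0.17 (high-gain 4) to 0.42 and was -0.075 without low-gain 4. PEPD ranged from -0.16 (low-gain 4) to 0.22. KRT14 ranged from -0.21 (high-gain 1) to 0.92 and was -0.10 without high-gain 2 and -0.036 without low-gain 2. Without high-gain replicate 4 in regions without a first exon, SLC16A1 was -0.17 and NDUFAB1 0.029. The cause was not tested. Endothelial, pericyte, smooth muscle and matrix medians stayed below that of all genes under all 22 settings, from -1.07 to -0.28, -1.18 to -0.59, -1.69 to -0.47 and -0.64 to -0.31.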

Other observations

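The intergenic regions had a median difference of -0.25, against -0.11 for genes. The regions described here had a mean level of at least 5 over the 8 libraries, and regions with smaller p exist outside this limit. Among the higher ones within it, the region with the smallest p lies on chromosome 5 in UMD3.1 (chr5:27599303-27599736). It lies near the type II keratin gene KRT6A (region chr5:27563738-27564745) and was covered more deeply than KRT6A itself. It stood at 4602, 2526, 3876 and 3807 at high gain and at 1682, 1479, 2418 and 1853 at low gain, without overlap, a difference of 0.99 ± 0.25 (SE; limma, unadjusted p = 0.00314, Benjamini-Hochberg adjusted p = 0.809). A neighbouring region (chr5:27597641-27598390) stood at 30.84, 25.50, 36.13 and 18.69 against 6.61, 11.64, 14.48 and 13.13, also without overlap. The file assigns neither to a gene, and reads shared with near-identical keratin genes may contribute. On the lower side, chr14:31840571-31840751 stood at 7.64, 9.16, 13.85 and 7.52 against 35.72, 18.18, 35.04 and 22.25.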
